A study of Homo sapiens with 6 samples.

Results

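The genes described here encode the reverse transcriptase of telomerase, the proteins that coat chromosome ends, and a helicase and a trafficking factor that work with them. They are TERT, WRAP53, TERF1, TERF2, TERF2IP, TINF2, ACD, POT1 and RTEL1, chosen by name for their function with earlier results of these data known. They make up 9 of the 60658 gene identifiers listed for every library, and all 9 had a value in each of the 6 libraries. RNA was sequenced from 2 prostate cancer cell lines that grow despite the androgen receptor antagonist enzalutamide. The medium of C4-2B MDVR cells held 20 µM enzalutamide, and that of CWR22Rv1 cells held none. Each line received DMSO as vehicle, 10 µM apoptozole (APO) or 10 µM VER155008 (VER) for 48 h. Both compounds inhibit HSP70 chaperones. Samples titled C4-2B MDVR carry a source label of LNCaP-C4-2B cells and the word parental, and the titles, which the study also uses, were followed. There was 1 library per condition and no replicate, so no difference between libraries has a measured error and no p-value is given.

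Telomeres are the repeated DNA at chromosome ends, and they shorten as cells divide unless telomerase adds repeats. Telomerase joins the catalytic protein TERT to the RNA template TERC, and most cancers keep TERT switched on while most normal adult cells do not. Shelterin is the protein complex that covers the repeats and keeps them from being treated as DNA breaks. TERF1 and TERF2 hold its duplex DNA, POT1 its single-stranded overhang, TINF2 and ACD bridge these DNA binders, and TERF2IP (RAP1) rides on TERF2.

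The values are FPKM, sequenced fragments divided by transcript length and by library size, so levels can be compared between genes. A change is given as log2(FPKM + 0.1) of one library minus that of another, which understates the change of genes near or below 0.1 FPKM. A gene is called higher or lower when it passed 1.2-fold, the fold used in the study, which is 0.26 on the log2 scale. The files carry no read totals. Relative depth, estimated from the FPKM worth of 1 fragment, was lowest in the C4-2B MDVR DMSO library, and was 1.65 times that in C4-2B MDVR with APO and between 1.12 and 1.25 times that in the other 4 libraries. Genes of the mitochondrial chromosome held 10.4% of all FPKM in CWR22Rv1 with APO and between 14.8% and 25.7% in the other libraries. All 10 markers of prostate luminal cells were above 1 FPKM in every library, with a summed level between 1064 and 1811 FPKM. The basal marker KRT5, the basal marker TP63 and the endothelial marker PECAM1 were listed at 0 throughout. The 3 fibroblast markers, COL1A1 among them, summed to between 4.84 and 10.9 FPKM and the 3 leukocyte markers to between 0.307 and 3.78 FPKM. The neuroendocrine markers CHGA and SYP summed to between 38.7 and 61.7 FPKM in CWR22Rv1 libraries and to at most 0.917 FPKM in C4-2B MDVR libraries. In these bulk libraries, fewer cells that express a gene and less of its RNA per cell cannot be told apart.

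TERT was lower with both inhibitors in both lines, by log2 values of 2.60 or more, and no other of the 9 genes changed as much in any of the 4 inhibitor contrasts. WRAP53 and RTEL1 were also lower in all 4. TERF2IP was the only one of the 9 that was higher in all 4 at the deposited scale, a call that was lost for C4-2B MDVR with APO when libraries were rescaled to the same sum of FPKM outside the mitochondrial chromosome (log2 change 0.26) or of protein-coding genes (0.22). The other 5 shelterin genes stayed within 2-fold of DMSO in each of the 4 contrasts. The 4 contrasts are not separate evidence, since APO and VER of a line share its DMSO library. Of the 18059 genes compared in both lines, 11.3% were lower and 9.59% higher in all 4.

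**Figure D1:**
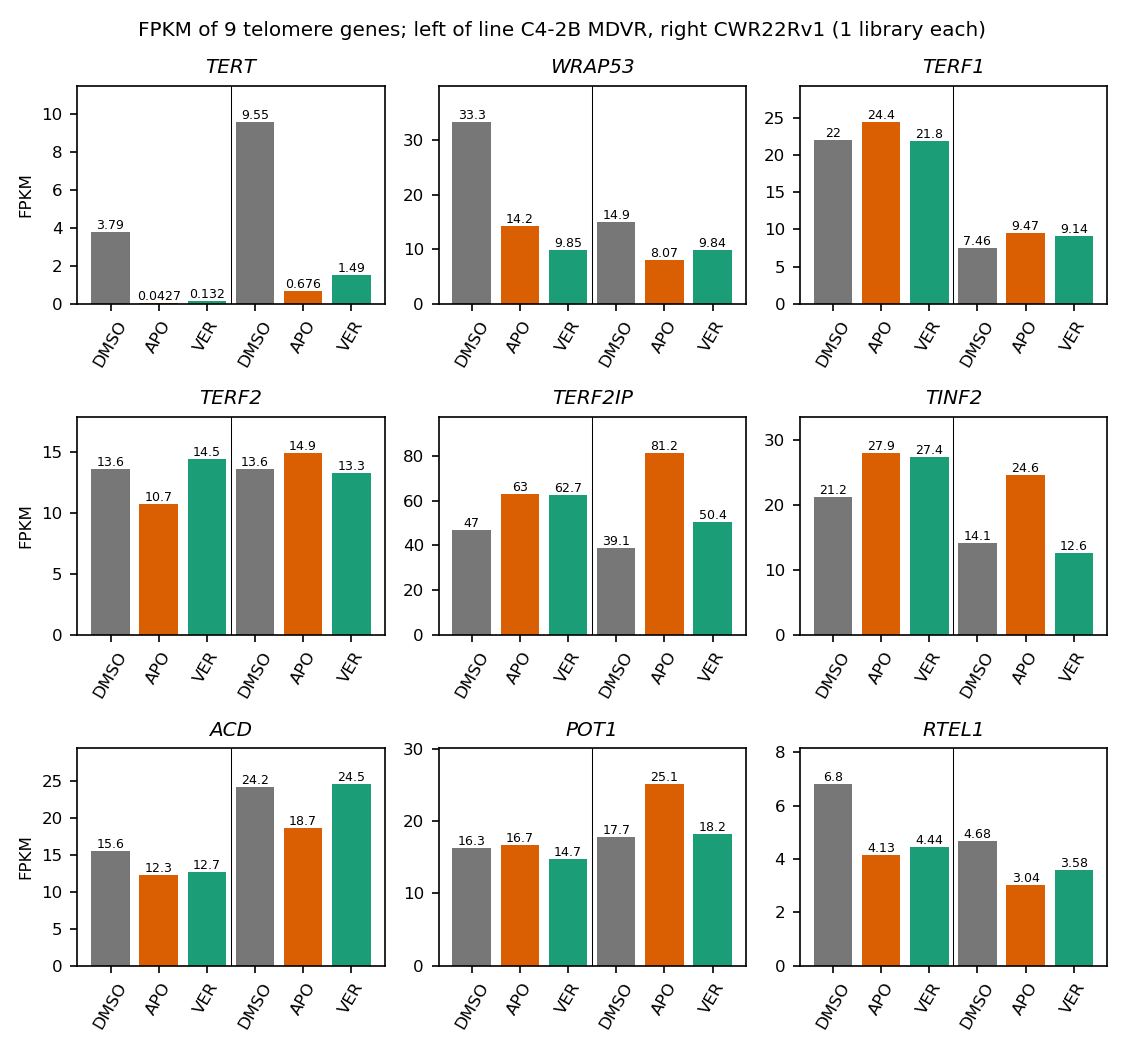
FPKM of each of the 9 genes (vertical axis, linear, starting at 0 and scaled for each gene) in the 6 libraries, with C4-2B MDVR to the left of the line and CWR22Rv1 to the right, and 1 bar per library without error bars, as there were no replicates. TERT is at 3.79 and 9.55 FPKM with DMSO and between 0.0427 and 1.49 FPKM with an inhibitor, while TERF2IP is the highest of the 9 genes in every library.

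In C4-2B MDVR with APO, 5 of the 9 genes were lower and 2 higher, beside 35.4% lower and 37.7% higher among the 20122 genes compared. Past 2-fold, 2 of the 9 were lower and 0 higher, beside 13.3% and 15.4% of all genes. With VER in the same line 4 were lower and 2 higher, beside 34.9% and 35.6%, and past 2-fold 2 were lower and 0 higher, beside 13.3% and 14.4%. In CWR22Rv1 with APO 4 were lower and 4 higher, beside 39.2% and 35.6% of the 21608 genes compared, and past 2-fold 1 was lower and 1 higher, beside 16.8% and 13.8%. With VER in CWR22Rv1 3 were lower and 2 higher, beside 32.3% and 32.1%, and past 2-fold 1 was lower and 0 higher, beside 8.92% and 10.8%. The median log2 change of the 9 was -0.34, -0.15, 0.13 and -0.03 in these 4 contrasts in the same order, beside medians over all genes between -0.01 and 0.

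**Figure D2:**
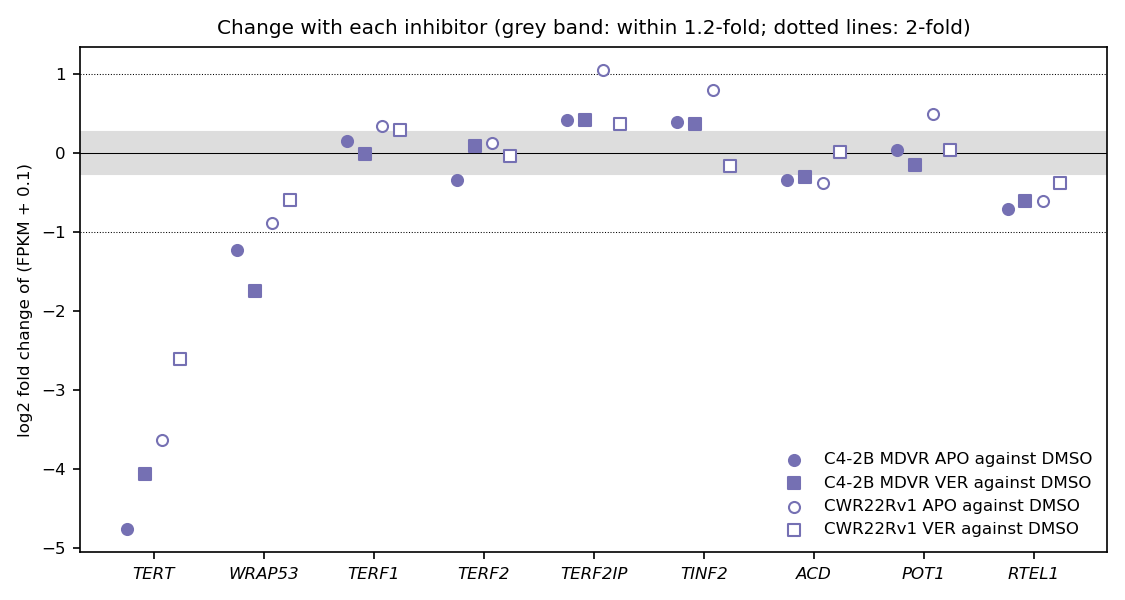
Log2 fold change of FPKM + 0.1 against DMSO of the same line (vertical axis) for each of the 9 genes (horizontal axis), with filled symbols for C4-2B MDVR, open symbols for CWR22Rv1, circles for APO and squares for VER, each from 1 pair of libraries. TERT lies between -4.77 and -2.60, WRAP53 and RTEL1 lie under the grey band of 1.2-fold in all 4 contrasts, and most shelterin values lie in or near the band.

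TERT (ENSG00000164362, chr5:1253147-1295069, minus strand, GRCh38) encodes the catalytic subunit of telomerase. In C4-2B MDVR cells its level was 3.79 FPKM in the DMSO library, 0.0427 FPKM in the APO library and 0.132 FPKM in the VER library. In CWR22Rv1 cells the levels were 9.55, 0.676 and 1.49 FPKM. Both DMSO libraries were above all 4 inhibitor libraries, and every CWR22Rv1 library was above its C4-2B MDVR counterpart. For C4-2B MDVR the log2 changes were -4.77 (APO) and -4.07 (VER), and for CWR22Rv1 they were -3.64 (APO) and -2.60 (VER). As plain ratios of FPKM, TERT was 88.6-fold and 28.7-fold lower in C4-2B MDVR and 14.1-fold and 6.41-fold lower in CWR22Rv1. Few genes changed as far in that direction. In C4-2B MDVR, 32 genes had a lower log2 change with APO (0.159% of those compared) and 100 with VER. In CWR22Rv1, 117 did with APO and 231 with VER (1.07%). With 0.1 added to each value, a gene of low FPKM with DMSO could not reach such a change even at 0. Such genes are among those compared, so these shares are partly set by level.

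The low TERT values rested on very few fragments. Taking the estimated FPKM worth of 1 fragment and a TERT transcript of 4018 bases, the C4-2B MDVR libraries held about 207 TERT fragments with DMSO, 4 with APO and 8 with VER, and the CWR22Rv1 libraries about 583, 46 and 101. An exact Poisson interval at 95%, which covers counting error only, ran from 0.0121 to 0.113 FPKM for C4-2B MDVR with APO and from 0.0555 to 0.253 FPKM with VER. These intervals overlap, and both lie far below the DMSO interval of 3.29 to 4.34 FPKM. Overlap is not a test of a difference, and the APO and VER counts were not compared directly. Whether TERT differed between APO and VER in C4-2B MDVR was therefore not settled. In CWR22Rv1 the intervals were 8.78 to 10.3 FPKM with DMSO, 0.494 to 0.899 with APO and 1.22 to 1.82 with VER, with no overlap. The fragment numbers are approximate, since whole fragments could not be recovered from the files.

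Only 5 of the 18059 genes, TERT among them, were at least as low as TERT in all 4 contrasts. Genes of low FPKM with DMSO are among the 18059 and could not be, for the reason given above. The other 4, named after their values were seen, were RMRP, AC084125.4, AL121655.1 and AC138696.2. RMRP, the RNA of the ribonuclease that processes mitochondrial and ribosomal RNA, stood at 648 FPKM in C4-2B MDVR and 57.9 FPKM in CWR22Rv1 with DMSO and under 0.1 FPKM in all 4 inhibitor libraries. The remaining 3 stood between 1.88 and 12.1 FPKM with DMSO and were listed at 0 with either inhibitor. RMRP is a short RNA without a poly-A tail, and the libraries were made from polyadenylated RNA.

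WRAP53 (ENSG00000141499, chr17:7686071-7703502, plus strand) encodes TCAB1, which brings telomerase to Cajal bodies and on to telomeres. In the order DMSO, APO, VER, it stood at 33.3, 14.2 and 9.85 FPKM in C4-2B MDVR, and at 14.9, 8.07 and 9.84 FPKM in CWR22Rv1. The DMSO library was the highest of each line, and C4-2B MDVR with DMSO was the highest of all 6. For C4-2B MDVR the log2 changes were -1.23 (APO) and -1.75 (VER), both past 2-fold, and for CWR22Rv1 they were -0.88 and -0.60.

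TERF1 (ENSG00000147601, chr8:73008864-73048122, plus strand), which binds duplex telomere repeats and limits their length, stood at 21.99, 24.4 and 21.8 FPKM in C4-2B MDVR with DMSO, APO and VER. In CWR22Rv1 it stood at 7.46, 9.47 and 9.14 FPKM. All 3 C4-2B MDVR libraries were above all 3 CWR22Rv1 libraries. Its log2 changes were 0.15 and -0.01 in C4-2B MDVR, within 1.2-fold, and 0.34 and 0.29 in CWR22Rv1, just past 1.2-fold. Rescaling to the same sum outside the mitochondrial chromosome brought both CWR22Rv1 changes within 1.2-fold (0.19 and 0.22).

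TERF2 (ENSG00000132604, chr16:69355561-69408571, minus strand) protects chromosome ends from fusing. It stood at 13.6, 10.7 and 14.5 FPKM in C4-2B MDVR and at 13.6, 14.9 and 13.3 FPKM in CWR22Rv1, the narrowest span of the 9 genes. C4-2B MDVR with APO was the lowest library (log2 change -0.34), and the other 3 changes of 0.09, 0.13 and -0.03 were within 1.2-fold. AC026464.3, a gene of the same strand that shares 746 bases with TERF2, was at 1.42 FPKM in CWR22Rv1 with DMSO and under 0.001 FPKM in the other 5 libraries.

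TERF2IP (ENSG00000166848, chr16:75647786-75761872, plus strand) encodes RAP1, the shelterin subunit bound to TERF2, which also acts outside telomeres. Its levels were 47.0, 63.0 and 62.7 FPKM in C4-2B MDVR with DMSO, APO and VER, and at 39.1, 81.2 and 50.4 FPKM in CWR22Rv1. The DMSO library was the lowest of each line and CWR22Rv1 with APO the highest of all 6. The log2 changes were 0.42 and 0.42 in C4-2B MDVR and 1.05 and 0.37 in CWR22Rv1.

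TERF2IP and KARS, the lysyl-tRNA synthetase gene, run in opposite directions from neighbouring starts. The stretch between them is shown because each gene could be read from it and their values differed. It spans chr16:75647680-75647772, plus strand, GRCh38.p14, 93 bases from the RefSeq promoter table that end before the RefSeq start of TERF2IP, and GENCODE 29 places it in an intron of a longer KARS transcript. Capitals mark the letters CTTCCGG, the reverse complement of the ETS-family letters CCGGAAG, and the GC box GGGCGG.
TERF2IP-KARS stretch: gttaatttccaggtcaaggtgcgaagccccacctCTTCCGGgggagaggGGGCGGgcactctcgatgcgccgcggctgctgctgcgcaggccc

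KARS stood at 101, 88.5 and 80.1 FPKM in C4-2B MDVR with DMSO, APO and VER, and at 60.4, 65.9 and 46.9 FPKM in CWR22Rv1. Its log2 changes of -0.19, -0.33, 0.13 and -0.37 lay below those of TERF2IP in all 4 contrasts. The ETS letters, searched on both strands, occur in 10.3% of all 35116 windows of 300 bases in the RefSeq promoter table and the GC box in 45.0%. A match is a description of the letters, not of a bound site.

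TINF2 (ENSG00000092330, chr14:24239643-24242674, minus strand) encodes TIN2, the hub that joins TERF1, TERF2 and ACD. It stood at 21.2, 27.9 and 27.4 FPKM in C4-2B MDVR and at 14.1, 24.6 and 12.6 FPKM in CWR22Rv1. Its value was above DMSO in 3 of the 4 inhibitor libraries and was lowest in CWR22Rv1 with VER. The log2 changes were 0.40, 0.37, 0.80 and -0.16, the last within 1.2-fold. The APO change in C4-2B MDVR was within 1.2-fold after rescaling to the same sum of FPKM (0.25).

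ACD (ENSG00000102977, chr16:67657512-67660815, minus strand) encodes TPP1, which tethers POT1 and recruits telomerase. It stood at 15.6, 12.3 and 12.7 FPKM in C4-2B MDVR and at 24.2, 18.7 and 24.5 FPKM in CWR22Rv1. All 3 CWR22Rv1 libraries were above all 3 C4-2B MDVR libraries. Its log2 changes were -0.34, -0.30 and -0.37, lower past 1.2-fold, and 0.02 for CWR22Rv1 with VER. The APO change in CWR22Rv1 came within 1.2-fold (-0.26) when libraries were rescaled to the same sum of FPKM. PARD6A, a cell polarity gene whose start lies 131 bases from that of ACD on the opposite strand, changed by 0.65, 0.68, 0.10 and -0.33. CARMIL2, an actin regulator that shares 58 bases with ACD, stood at 1.62, 0.569 and 1.29 FPKM in C4-2B MDVR and at 12.6, 6.71 and 9.32 FPKM in CWR22Rv1.

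POT1 (ENSG00000128513, chr7:124822386-124929983, minus strand), the protein of the telomeric overhang, stood at 16.3, 16.7 and 14.7 FPKM in C4-2B MDVR and at 17.7, 25.1 and 18.2 FPKM in CWR22Rv1. CWR22Rv1 with APO stood above the other 5 libraries. That contrast gave a log2 change of 0.50, and the other 3 (0.04, -0.15 and 0.04) were within 1.2-fold. POT1-AS1, an antisense RNA whose gene shares 111 bases with POT1, stood at 1.60 FPKM in CWR22Rv1 with APO and at 0.392 FPKM or less elsewhere. Whether the authors counted fragments by strand is not given in the sources used here, so how far reads of overlapping genes on opposite strands were told apart was not tested.

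RTEL1 (ENSG00000258366, chr20:63657810-63696253, plus strand) encodes a helicase that opens telomere loops and other DNA structures during replication. It stood at 6.80, 4.13 and 4.44 FPKM in C4-2B MDVR and at 4.68, 3.04 and 3.58 FPKM in CWR22Rv1. The DMSO library was the highest of each line. The log2 changes were -0.70, -0.60, -0.61 and -0.38, all lower past 1.2-fold and none past 2-fold. The readthrough gene RTEL1-TNFRSF6B shares 36954 bases with RTEL1 on the same strand, so that their reads could be split between them. Summed, both genes stood at 9.45, 5.62 and 6.28 FPKM in C4-2B MDVR and at 7.98, 4.09 and 5.84 FPKM in CWR22Rv1, with the DMSO library again the highest of each line. STMN3, whose start lies 128 bases from that of RTEL1 on the opposite strand and which encodes a microtubule regulator of neurons, stood at 1.14 to 1.67 FPKM in C4-2B MDVR and at 45.2 to 99.9 FPKM in CWR22Rv1.

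**Figure D3:**
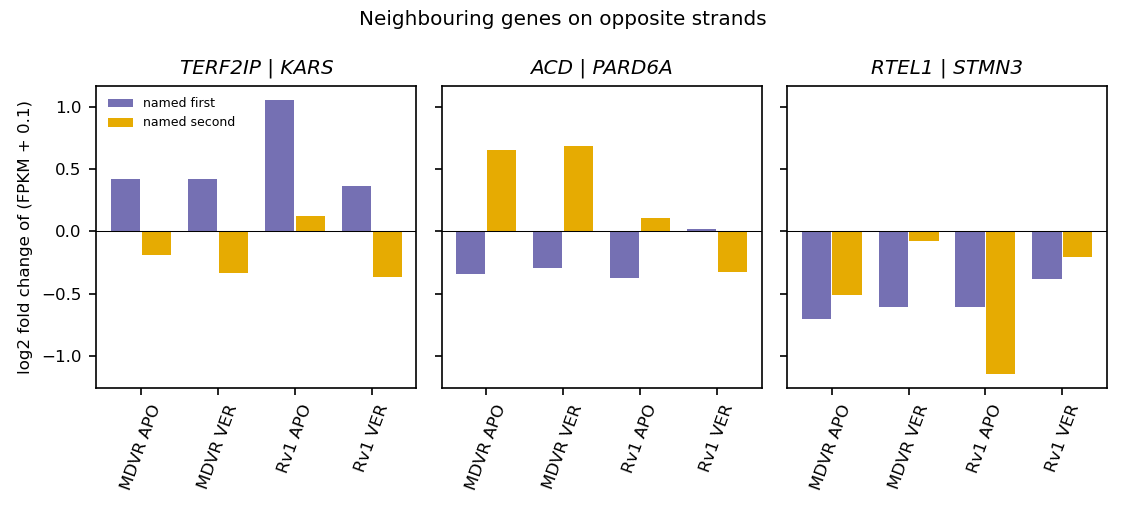
Log2 fold change of FPKM + 0.1 against DMSO (vertical axis) in the 4 inhibitor contrasts for TERF2IP, ACD and RTEL1 (purple) and a gene on the opposite strand with a nearby start (yellow), from 1 pair of libraries per bar. The bars of TERF2IP lie above those of KARS in all 4 contrasts, and those of RTEL1 and STMN3 all lie below 0. The bars of ACD and PARD6A differ in sign in all 4, though ACD in CWR22Rv1 with VER is at only 0.02. That ACD value was -0.04 after rescaling to the same sum of FPKM.

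TERF2IP had the largest share of shelterin transcripts, with 34.6% of the summed FPKM of the 6 subunits in C4-2B MDVR with DMSO and 33.6% in CWR22Rv1 with DMSO. Its share was 40.6% (APO) and 40.8% (VER) in C4-2B MDVR and 46.7% (APO) and 39.3% (VER) in CWR22Rv1. The share of ACD was 11.5%, 7.92% and 8.24% in C4-2B MDVR and 20.8%, 10.7% and 19.2% in CWR22Rv1. The ratio of TINF2 to ACD, which bind each other, was 1.36, 2.28 and 2.16 in C4-2B MDVR and 0.583, 1.32 and 0.513 in CWR22Rv1. The ratio of TERF2IP to its partner TERF2 was 3.45, 5.86 and 4.34 in C4-2B MDVR and 2.87, 5.44 and 3.78 in CWR22Rv1, highest with APO in each line. The median log2 change of the 6 subunits was 0.09, 0.04, 0.42 and 0.03 in the 4 contrasts.

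**Figure D4:**
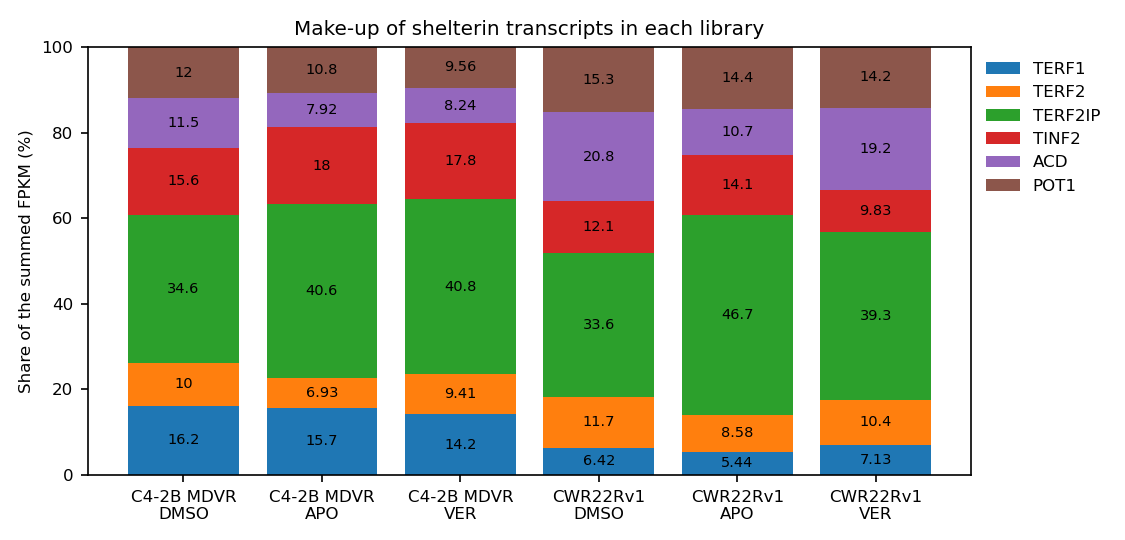
Share of each of the 6 shelterin genes in their summed FPKM (vertical axis, percent) in each of the 6 libraries, with the share printed in each segment. The TERF2IP segment is the largest in every library, from 33.6% to 46.7%, and the ACD segment is 20.8% in CWR22Rv1 with DMSO and 10.7% with APO.

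The inhibitors were compared directly at 10 µM and 48 h. In C4-2B MDVR, 2 of the 9 genes were higher and 1 lower with VER than with APO, beside 61% of all genes changed in either direction. On the log2 scale VER minus APO was 0.70 for TERT, whose counting intervals overlap as given above, 0.43 for TERF2 and -0.52 for WRAP53. In CWR22Rv1, 3 were higher and 3 lower, beside 71.8% of all genes. There VER minus APO was 1.03 for TERT, 0.39 for ACD and 0.28 for WRAP53, and -0.96 for TINF2, -0.69 for TERF2IP and -0.46 for POT1. The values of ACD (0.21) and WRAP53 (0.10) were within 1.2-fold after rescaling to the same sum of FPKM. TERF1 (-0.16 and -0.05) and RTEL1 (0.10 and 0.23) were within 1.2-fold between the inhibitors in both lines, though RTEL1 passed it when summed with its readthrough gene in CWR22Rv1 (0.50) and under other scalings.

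Between the lines under DMSO, 5 of the 9 genes were higher and 2 lower in C4-2B MDVR than in CWR22Rv1, beside 82.4% of all 20903 genes changed in either direction. Past 2-fold, 2 were higher and 1 lower, beside 46.6% of all genes. On the log2 scale C4-2B MDVR minus CWR22Rv1 was 1.55 for TERF1, 1.15 for WRAP53 and -1.31 for TERT. TINF2 (0.58), RTEL1 (0.53) and TERF2IP (0.27) were higher and ACD (-0.63) lower, while TERF2 (-0.00) and POT1 (-0.12) were within 1.2-fold. The TERF2IP value came within 1.2-fold under 3 rescalings (0.14 to 0.17) and with a pseudocount of 1 (0.26), and that of RTEL1 when summed with its readthrough gene (0.24). The ratio of TERF1 to TERF2 was 1.62 in C4-2B MDVR and 0.548 in CWR22Rv1. Line and maintenance in enzalutamide cannot be told apart in this contrast. Ranked by FPKM with DMSO, C4-2B MDVR ran TERF2IP, WRAP53, TERF1, TINF2, POT1, ACD, TERF2, RTEL1, TERT, and CWR22Rv1 ran TERF2IP, ACD, POT1, WRAP53, TINF2, TERF2, TERT, TERF1, RTEL1. With no spread between replicates, neighbours in these orders cannot be said to differ.

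Telomerase also needs factors that assemble it and mature its RNA, and 15 were examined. In C4-2B MDVR 7 were lower and 2 higher with APO, and 9 lower and 1 higher with VER, and in CWR22Rv1 2 were lower and 4 higher with APO, and 8 lower and 0 higher with VER. Over all genes compared, the shares lower were 35.4%, 34.9%, 39.2% and 32.3% in the 4 contrasts in the same order and the shares higher 37.7%, 35.6%, 35.6% and 32.1%. The median log2 changes of the 15 were -0.25, -0.32, -0.08 and -0.32, beside all-gene medians between -0.01 and 0. DKC1, the dyskerin that stabilizes TERC, stood at 75.2, 43.0 and 40.9 FPKM in C4-2B MDVR and at 54.7, 51.6 and 36.6 FPKM in CWR22Rv1, lower in 3 of the 4 contrasts. TOE1, a 3′ trimming enzyme of TERC, changed by -0.63, -1.001, -1.11 and -0.96. TERC itself has no poly-A tail and was at 0.842, 0.507 and under 0.001 FPKM in C4-2B MDVR and at 1.06 FPKM with APO and under 0.001 FPKM in the other CWR22Rv1 libraries, so its change was not readable here.

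The CST complex and DNA polymerase alpha-primase, which fill in the strand opposite the telomerase product, were split. Among their 7 genes 5 were lower and 2 higher in each contrast except CWR22Rv1 with VER, with 4 lower and 2 higher, beside 32.3% to 39.2% lower and 32.1% to 37.7% higher over all genes. All 4 polymerase genes were lower throughout, for example POLA1 (-1.20, -1.64, -0.90, -1.17) and POLA2 (-1.07, -2.14, -1.53, -0.75). Of the CST genes, CTC1 changed by -0.33, -0.40, -0.35 and 0.47, STN1 by 0.50, 0.59, 1.03 and -0.18, and TEN1 by 0.40, 0.27, 0.34 and 0.30.

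Among 22 genes of shelterin partners and end processing, 12, 12, 9 and 11 were lower and 8, 7, 9 and 2 higher in the 4 contrasts. Over all genes 35.4%, 34.9%, 39.2% and 32.3% were lower and 37.7%, 35.6%, 35.6% and 32.1% higher, so the counts in CWR22Rv1 with APO were near those shares. FEN1, the flap nuclease, changed by -1.56, -2.03, -1.43 and -1.02, and EXO1, a resecting nuclease, by -1.25, -3.85, -1.56 and -1.26. They were the only genes of this list past 2-fold in 1 direction in all 4. SIAH1, a ubiquitin ligase that targets TERF2, changed by 1.74, 1.06, 1.31 and 0.10. DCLRE1B, the Apollo nuclease bound to TERF2, changed by -1.46, -1.37, -1.10 and -0.91.

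Of 15 genes of telomeric chromatin and the telomerase-independent pathway, 10, 12, 6 and 9 were lower and 0, 1, 4 and 1 higher. The all-gene shares were 35.4%, 34.9%, 39.2% and 32.3% lower and 37.7%, 35.6%, 35.6% and 32.1% higher, and the count lower in CWR22Rv1 with APO was near its share. ATRX, whose loss is typical of that pathway, stood between 18.0 and 24.98 FPKM in all libraries and was within 1.2-fold in 3 of the 4 contrasts (-0.28, -0.17, -0.12, -0.19). ASF1B, a histone chaperone of dividing cells, changed by -1.44, -3.42, -1.83 and -1.11.

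Among 20 proliferation genes, 19, 20, 17 and 20 were lower and 0 higher in the 4 contrasts, with medians of -1.65, -2.74, -1.34 and -1.17. Among all genes 35.4%, 34.9%, 39.2% and 32.3% were lower, with medians between -0.01 and 0. MKI67, the Ki-67 gene, stood at 23.4, 6.86 and 1.499 FPKM in C4-2B MDVR and at 27.4, 8.64 and 10.1 FPKM in CWR22Rv1. RRM2, the small subunit of ribonucleotide reductase, changed by -2.43, -4.81, -1.80 and -1.80. MCM2, MCM3, MCM5, CCNA2 and AURKB were also past 2-fold lower in all 4. Like TERT, most of these genes were lower with an inhibitor than with DMSO. With VER against APO in C4-2B MDVR, 16 were lower and 1 higher (median -1.43), where TERT changed by 0.70, with overlapping counting intervals. In CWR22Rv1 7 were lower and 9 higher (median 0.18), where TERT changed by 1.03. The part of these genes in the TERT result was not tested.

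**Figure D5:**
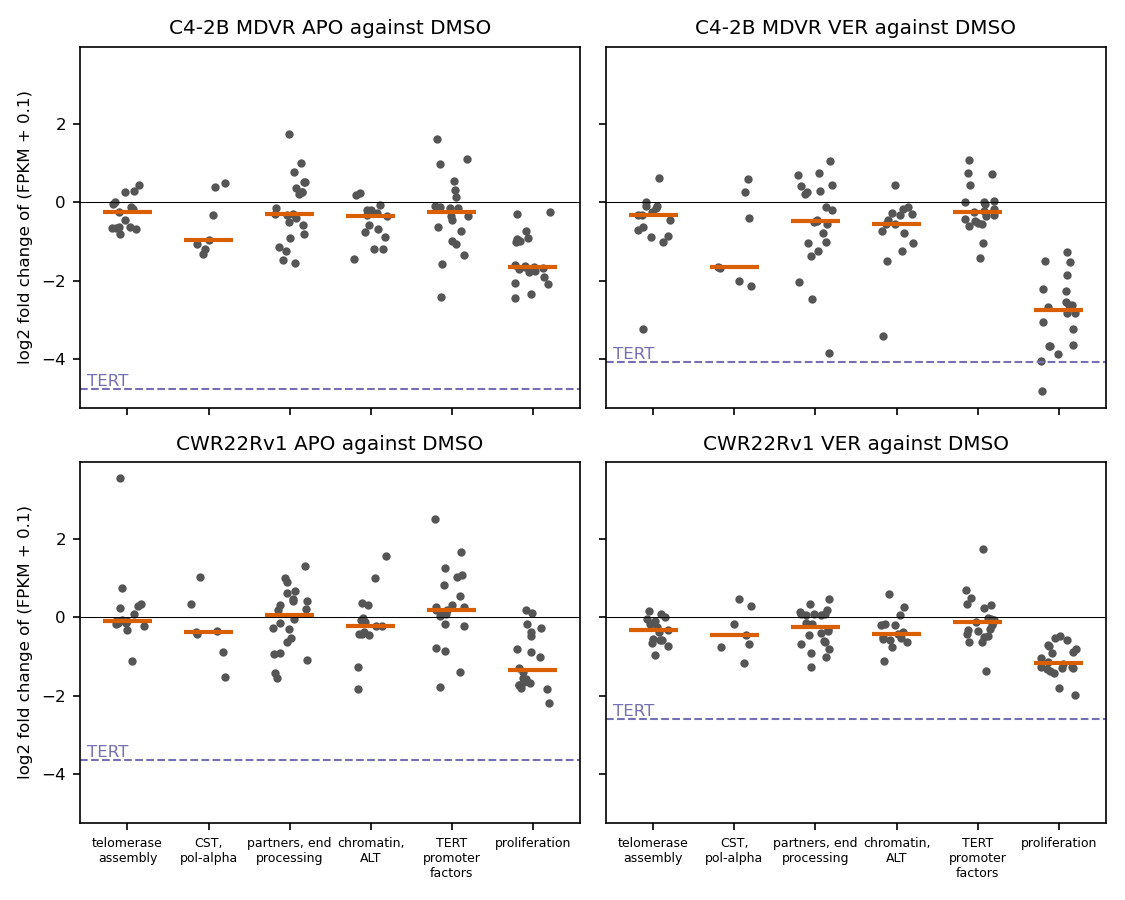
Log2 fold change of FPKM + 0.1 against DMSO (vertical axis) for each gene of 6 lists (points, spread sideways at random for legibility) in the 4 inhibitor contrasts, with the list median as an orange bar and TERT as a dashed line, each from 1 pair of libraries. The proliferation list has the lowest median in all 4 panels, from -2.74 to -1.17, and TERT lies below that median in each.

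Factors known to act on the TERT promoter include activators such as MYC and repressors such as the MAX partner MXD1. Of these 21 genes, 20 were compared in C4-2B MDVR, where 10 were lower and 5 higher with APO and 9 lower and 4 higher with VER. In CWR22Rv1 4 were lower and 9 higher with APO, and 9 lower and 5 higher with VER. These stood beside all-gene shares of 35.4%, 34.9%, 39.2% and 32.3% lower and 37.7%, 35.6%, 35.6% and 32.1% higher in the 4 contrasts. MYC stood at 120, 22.6 and 82.3 FPKM in C4-2B MDVR and at 118, 44.8 and 83.0 FPKM in CWR22Rv1. It was lower in all 4 contrasts (-2.41, -0.55, -1.39, -0.50). MXD1 was higher in all 4 (0.97, 0.73, 0.83, 0.50), as was KLF4 (1.11, 1.07, 2.51, 0.69), while E2F1 was lower in all 4 (-1.35, -1.43, -1.78, -0.62). WT1 changed by -1.07, -1.04, -0.21 and -0.32. These are examples from a list whose genes moved both ways, and the part of any of them in the TERT result was not tested.

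RefSeq promoter windows were matched for 7 of the 9 genes, with 11 windows in all. TERT was the only one of the 7 with the E-box CACGTG that MYC and MAX bind, with 1 match, and 7.26% of all windows hold it. The GC box was found in a window of each of the 7 genes, with 3 matches for TERT. The ETS letters were found for TERF2IP, TINF2 and 1 of the RTEL1 windows.

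The genes whose pattern over the 6 libraries was most like that of TERT were ZNF611 (Pearson r = 0.993), SPATA5 (0.991), MCM3 (0.990), ZNF114 (0.990) and ENTR1 (0.987), by r of log2(FPKM + 0.1), out of 14240 genes averaging 1 FPKM or more. The points share 2 lines and their DMSO libraries, so r is a description. MCM3, a subunit of the replicative helicase, stood at 32.5, 10.2 and 11.5 FPKM in C4-2B MDVR and at 44.9, 14.9 and 21.7 FPKM in CWR22Rv1. The order of libraries within each line was that of TERT, though for TERT the counting intervals of APO and VER in C4-2B MDVR overlap. A high r does not mean a change of like size. MCM3 changed by -1.66, -1.50, -1.58 and -1.04 in the 4 inhibitor contrasts, and TERT by -4.77, -4.07, -3.64 and -2.60.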

How the data were processed

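The authors aligned paired-end reads and deposited FPKM values, with 1 per gene in each library. The submitters' processing notes name HISAT, Cufflinks, Cuffnorm and GRCh38, and the study's methods also name StringTie. The annotation release is not given in the sources used here. The labels name a KAPA stranded kit with poly-A selection and the study a TruSeq kit. Identifiers were matched to GENCODE 29 (57047 of 60658).

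Changes are differences of log2(FPKM + 0.1) between libraries. Background counts cover genes above 0.1 FPKM in at least 1 library of the line, or in either DMSO library for the contrast of lines. The members and lists were chosen with earlier results of these data known. Named genes were all 9 members, list genes past 2-fold in 1 direction in all 4 inhibitor contrasts with a mean of at least 1 FPKM, TERC, DKC1, MYC, protein-coding neighbours, the 5 genes most correlated with TERT, and 2 to 4 examples per list. Genes within 1000 bases of a member's start or overlapping it were neighbours: 15 were annotated, 13 had values and 2 were not analysed here. A gene covered by these rules is not reported here. H3-3A and H3-3B were found under older symbols, and of 2 identifiers of PINX1 the higher was used. With 1 library per condition no test was made, and a model that adds line and treatment over the 6 libraries was not run. The fragment estimate, from 4650 single-transcript genes, was chosen after seeing the data. Alternatives were other pseudocounts, 4 rescalings, other folds and filters, and RTEL1 summed with its readthrough gene (added after seeing the data). The fold-change calculation and the median rescaling were tested on a copy of 1 library with known folds planted in some genes. The other steps were not tested in this way. Python 3.11.15 was run with numpy 2.4.6, pandas 2.3.3, matplotlib 3.10.9 and scipy 1.17.1.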

Additional observations from a re-analysis of the deposited data

Results flagged for a closer look

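Cases were listed where a gene's changes had opposite signs in the 2 lines with the same inhibitor and at least 1 passed 1.2-fold. At the deposited scale there were 4, all of shelterin genes, and in each the other change was within 1.2-fold. With VER, POT1 (-0.15 and 0.04) and TERF2 (0.09 and -0.03) also differed in sign between the lines. They were within 1.2-fold in both lines and were not listed. Each listed case rests on 1 library per condition, and none of these differences was tested. With APO, TERF2 changed by -0.34 on the log2 scale in C4-2B MDVR and by 0.13 in CWR22Rv1, a difference of -0.47. With VER, TERF1 changed by -0.01 and 0.29, a difference of -0.30. With VER, TINF2 changed by 0.37 and -0.16, a difference of 0.53. With VER, ACD changed by -0.30 and 0.02, a difference of -0.32. The opposite sign was lost under some rescalings for TERF2, ACD and TERF1. TERF2 in CWR22Rv1 with APO was -0.02 with the same sum outside the mitochondrial chromosome. ACD in CWR22Rv1 with VER was -0.04 with the same sum of FPKM. TERF1 in C4-2B MDVR with VER was 0.006 with a median ratio of 1. TINF2 kept opposite signs under every rescaling.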

How the results depend on the processing

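Over all single-gene changes and alternatives, 357 values kept their call, 21 lost it, 7 gained it and no called change reversed. TERT, WRAP53 and RTEL1 stayed lower past 1.2-fold in all 4 inhibitor contrasts under every alternative. TERT ranged from -6.17 to -2.20 in C4-2B MDVR with APO, from -4.74 to -2.08 with VER, from -3.80 to -2.65 in CWR22Rv1 with APO and from -2.69 to -2.08 with VER. Its VER minus APO value in C4-2B MDVR was 0.12 with a pseudocount of 1. The number of the 9 genes that were higher in C4-2B MDVR with APO was 1 after rescaling to the same sum of FPKM, and 0 with the sum outside the mitochondrial chromosome or of protein-coding genes. In CWR22Rv1 with VER it was 1 under these 3 rescalings and with a pseudocount of 1. With VER against APO it was 1 in C4-2B MDVR with a pseudocount of 1 and 1 in CWR22Rv1 with the same sum of FPKM. These rescalings moved the median of genes above 1 FPKM in C4-2B MDVR with APO from 0.02 to -0.12, -0.14 and -0.17, and in CWR22Rv1 with APO from -0.01 to 0.10, -0.16 and -0.16.

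Stricter folds set the counts by construction. At 1.5-fold, 0 genes were higher and 3 lower in C4-2B MDVR with APO, 0 were higher with VER, 2 were higher in CWR22Rv1 with APO and 0 with VER. With VER against APO at 1.5-fold, 1 was higher and 0 lower in C4-2B MDVR and 1 was higher in CWR22Rv1, and between the lines 2 were higher. At 2-fold, 0 were higher and 2 lower in C4-2B MDVR with either inhibitor, 1 was higher and 1 lower in CWR22Rv1 with APO, and 0 higher and 1 lower with VER. With VER against APO at 2-fold, 0 were higher and 0 lower in C4-2B MDVR and 1 was higher and 0 lower in CWR22Rv1, and between the lines 2 were higher and 1 lower. The median of the 9 between the lines under DMSO, 0.27, was 0.16 with a median ratio of 1, 0.14 with the sum outside the mitochondrial chromosome, 0.17 with that of protein-coding genes, 0.26 with a pseudocount of 1 and 0.24 with RTEL1 summed with its readthrough gene, all under 1.2-fold. The cause was not tested. Without a filter on low values the share of all genes past 1.2-fold in 1 direction was between 12.6% and 15.2%. With 1 library per condition, and TERT at about 4 and 8 fragments in C4-2B MDVR with APO and VER, the size of its change there is loosely set.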
